A study of Rattus norvegicus with 6 samples.

Results

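The expression of 10 macrophage genes was examined in 6 rat prostate tumors. The genes were Mpeg1, Msr1, Clec4a3, Cd163, Mrc1, Marco, Cd68, Csf1r, Lyz2 and Cd53, which are 10 of the 17030 gene symbols in the deposited table. Each was on a single row, and all 10 were among the 10740 symbols with a mean of at least 1 FPKM that were tested. FPKM is the number of fragments scaled to transcript length and to the mapped fragments of a library, a level that can be compared between genes of different length. The genes were listed with the levels in these libraries and the differences between treated and control tumors already known. Differences between the groups are therefore given for the 10 genes as descriptions, without a test.

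The tumors came from PAIII, a transplantable rat prostate adenocarcinoma line, injected under the skin of the flank of Lobund-Wistar rats at 2 months of age. Digitoxin, a cardiac glycoside that inhibits the sodium pump, was given daily by the intraperitoneal route at 0.03 mg/kg from day 10 until the tumors were taken on day 40. The libraries labelled as digitoxin-treated are A1, A6 and A12, and those labelled as vehicle-treated are B5, B9 and B14, with 1 rat per library and n = 3 in each group. Treated rats had been picked from those with low serum IL-6 and CINC-1, and vehicle rats from those with high levels, so treatment and serum level cannot be told apart in the comparison. Tissue came from 10 micropunches of 1 mm per tumor, taken from viable regions of frozen sections. Groups follow the labels throughout. Setting these libraries beside the fold changes of the study's supplementary material put the labels of A1 and B9 in doubt for many genes, though some, such as Cxcr2, Csf3r and Csf2rb, went with the labels. This was not resolved, so every direction and every count of groups that do not overlap holds for the libraries as labelled. Where 3 values per group are given they stand in the order A1, A6, A12 and B5, B9, B14. Gene positions are those of the deposited table, whose rat build is not given in the sources used here.

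Macrophages arise from embryonic precursors that settle in tissues and from blood monocytes that enter later. Signaling through the CSF-1 receptor keeps most of them alive, and scavenger receptors on their surface bind modified lipoproteins, bacteria, dying cells and hemoglobin complexes. What they take up is carried to phagosomes and lysosomes, where pore-forming proteins, lysozyme and proteases act on it. Alveolar macrophages of the lung carry MARCO and the mannose receptor, and CD163 and the mannose receptor are also used as markers of resident and perivascular macrophages in other tissues. In rats, the ED1 antibody recognizes CD68 and the ED2 antibody recognizes CD163. In bulk tissue, fewer cells of a type and less RNA per cell cannot be told apart.

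The libraries differed in their level of lung transcripts. Ager, a gene of lung alveolar type I cells, was at 2092 FPKM in A1, 4574 in A6, 965 in B5 and 1529 in B9, but at 0.840 in A12 and 0.975 in B14. Of 15 lung alveolar epithelial genes, 14 were in the table, and their summed level ran from 66.8 to 86320 FPKM in the digitoxin group and from 88.0 to 37015 FPKM in the vehicle group. Of these, 5 were listed at 0 in A12 and 6 in B14, among them the surfactant gene Sftpc in B14, and none in the other libraries. The label gives all 6 as PAIII tumor. FPKM summed to between 651322 and 1025230 in a library, and between 12148 and 13503 rows were above 0. Read depth is unknown, since only FPKM were analysed, and no counting error can be given. The differences of the 10 genes are given below with A12 and B14 and without them.

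Upstream sequences are shown for 4 of the genes, which differ in whether their groups overlapped. Mpeg1 and Cd53 were lower in every digitoxin library, while Mrc1 and Cd68 were lowest in A12 and B14 and overlapped between the groups. These are not opposite patterns, since A12 was the lowest library for Cd53 as well. Cd68 was also nearly as low in B9, at 145 FPKM, as in B14, at 144. RefSeq gave a promoter window for 9 of the 10 genes. The stretch shown covers 250 to 51 bases before the annotated start in build GRCr8, and it lay outside the annotated gene for 6 of the 9. Capitals mark GAGGAA or its reverse complement TTCCTC, the core bound by the macrophage factor PU.1, and TGANTCA, the AP-1 site, both searched on both strands. No printed stretch holds both motifs.
Mpeg1, chr1:218876644-218876843, plus strand: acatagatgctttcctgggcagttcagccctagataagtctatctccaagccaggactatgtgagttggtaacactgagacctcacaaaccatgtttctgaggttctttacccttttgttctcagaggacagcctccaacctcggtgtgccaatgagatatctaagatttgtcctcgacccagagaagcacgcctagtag
Cd53, chr2:197087947-197088146, minus strand: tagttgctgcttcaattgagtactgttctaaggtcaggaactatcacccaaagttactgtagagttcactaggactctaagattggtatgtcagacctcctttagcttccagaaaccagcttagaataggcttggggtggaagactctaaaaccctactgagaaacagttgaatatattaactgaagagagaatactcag
Mrc1, chr17:82157475-82157674, plus strand: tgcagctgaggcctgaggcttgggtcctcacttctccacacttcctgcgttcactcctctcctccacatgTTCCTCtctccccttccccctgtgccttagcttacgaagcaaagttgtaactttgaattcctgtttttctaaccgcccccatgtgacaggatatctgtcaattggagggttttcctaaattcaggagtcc
Cd68, chr10:54882492-54882691, minus strand: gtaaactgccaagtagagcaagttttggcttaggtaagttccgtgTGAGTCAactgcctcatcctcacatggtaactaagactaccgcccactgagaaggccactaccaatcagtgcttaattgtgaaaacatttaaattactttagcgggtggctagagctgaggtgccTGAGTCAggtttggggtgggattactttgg

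GAGGAA was found in 4 of the 9 windows cut to these 200 bases, those of Mrc1, Clec4a3, Marco and Csf1r, and in 19.1% of all 33469 windows cut in the same way. TGANTCA was found in 1 of the 9, that of Cd68, which has 2 copies, and in 5.22% of all windows. The stretches of Clec4a3, Marco and Csf1r lie within the annotated gene and are not printed. A match is a string of letters and was not tested as a binding site.

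Of the 10740 genes tested with limma on log2(FPKM + 1), 0 had an adjusted p under 0.05 between digitoxin and vehicle tumors (lowest value 0.926). There were 36 genes with an unadjusted p under 0.05, or 0.335%, of which 29 (0.27%) had a lower and 7 (0.0652%) a higher mean with digitoxin. Fewer genes passed than the threshold of 0.05 would let through on average without any difference. The 0 adjusted calls therefore do not show that the groups were alike. Calls of this kind are not given for the 10 genes, which were chosen on the same contrast. With the replicate number as a block the unadjusted count was 446 and the adjusted count was again 0. Of the 10 macrophage genes, 7 had a lower log2 mean with digitoxin, against 64.9% of all tested genes. The median log2 fold change was -0.42 over the 10 genes and -0.16 over all tested genes, a difference of -0.26. Scaling each library by the median of its ratios to the geometric mean over libraries (median-of-ratios scaling) moved the median of all genes by 0.18 and left 6 of the 10 lower. The groups did not overlap for 4 of the 10, each lower in every digitoxin library, against 3.26% of all tested genes with that direction, 0.903% with the opposite one and 4.16% with either. B9 was above A1 for each of these 4, so the groups of all 4 would overlap if the labels of A1 and B9 were exchanged. The choice of genes used this contrast, so nothing is read from these shares.

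**Figure D1:**
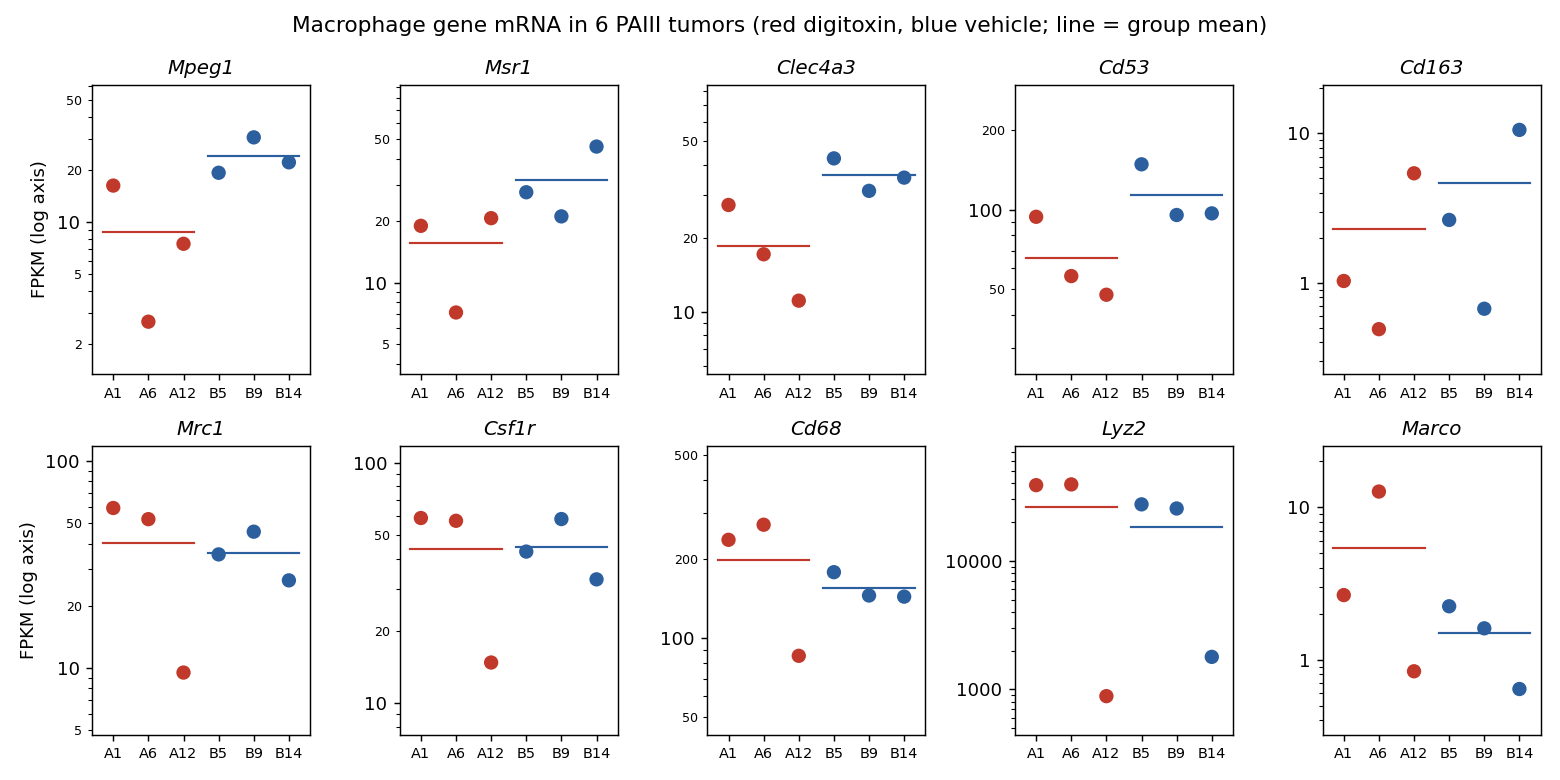
FPKM of the 10 macrophage genes on a log axis, 1 point per tumor library, with digitoxin libraries in red, vehicle libraries in blue and a line at each group mean (n = 3). Mpeg1, Msr1, Clec4a3 and Cd53 lie lower in every digitoxin library, while Lyz2 is at 887 FPKM in A12 and 1791 in B14 and at 25503 FPKM or more in the other libraries.

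The class A scavenger receptors differed from each other. Msr1 (chromosome 16, 56517028 to 56582240), the macrophage scavenger receptor for modified lipoproteins and bacteria, was at 18.9, 7.14 and 20.6 FPKM with digitoxin and 27.6, 21.1 and 46.2 FPKM with vehicle. The groups did not overlap, but the highest digitoxin library and the lowest vehicle library were only 0.415 FPKM apart. Its means were 15.6 ± 7.35 and 31.6 ± 13.02 FPKM (SD, n = 3), and the log2 fold change of -1.03 (standard error 0.49) became -0.58 without A6.

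Marco (chromosome 16, 84555640 to 84587281), the related receptor typical of alveolar macrophages, was low. It was at 2.65, 12.7 and 0.839 FPKM with digitoxin and 2.24, 1.61 and 0.642 FPKM with vehicle. A6 stood above all others, A12 and B14 were lowest, and the groups overlapped. The level was higher with digitoxin in all 3 pairs of the same replicate number (A1 with B5, A6 with B9, A12 with B14). That pairing comes from the replicate numbers and these data alone, so nothing is read from it. The log2 fold change of Marco, 0.91 (standard error 0.77), became 0.11 without A6. Msr1 exceeded Marco 24.6-fold in A12 and 72.0-fold in B14, where Marco was below 1 FPKM. The ratio was 7.14 in A1, 12.3 in B5 and 13.1 in B9, and only in A6, at 0.563, was Msr1 below Marco. The table places Marco on another chromosome than RefSeq's GRCr8 does, while the other 9 genes are on the same chromosome in both.

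Cd163 (chromosome 4, 223769350 to 223802725), the receptor that clears hemoglobin bound to haptoglobin, was highest in the libraries where Marco was lowest. It was at 5.41 FPKM in A12 and 10.6 in B14, but at 1.03 in A1, 0.489 in A6, 2.64 in B5 and 0.670 in B9. The libraries nearly without lung transcripts were thus the highest in each group. The groups overlapped, with means of 2.31 ± 2.70 and 4.62 ± 5.24 FPKM (SD, n = 3). Cd163 was lower with digitoxin in all 3 pairs of libraries with the same replicate number. Nothing is read from this, since only the replicate numbers and these data give the pairing, and A1 was above B9. The log2 fold change was -0.62 (standard error 0.87), but 0.12 without B14 and -1.27 without B9.

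Mrc1 (chromosome 17, 83099573 to 83180475), the mannose receptor that takes up glycoproteins and collagen fragments, did not follow Cd163. It was at 59.4, 52.4 and 9.52 FPKM with digitoxin and 35.4, 45.6 and 26.5 FPKM with vehicle. A12 and B14 were the lowest. The ratio of Mrc1 to Cd163 was 1.76 in A12 and 2.51 in B14, and between 13.4 and 107 in the other libraries. The log2 fold change of Mrc1 was -0.15 (standard error 0.70), but 0.66 without A12, 0.0315 without B9 and 0.0399 with median-of-ratios scaling, so its sign depends on these choices. Endothelial cells can also express Mrc1, and the summed level of the 12 endothelial genes in the table ran from 202 to 1801 FPKM with digitoxin and from 236 to 836 FPKM in the vehicle group, lowest in A12 and B14. A12 and B14 were the lowest for 9 of the 12. Flt1 had the opposite order, at 60.0 FPKM in A12, 69.4 in B14 and from 1.41 to 32.7 elsewhere. The part of endothelium in the Mrc1 level was not tested.

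Clec4a3 (chromosome 4, 222933505 to 222943219) encodes a C-type lectin of the dendritic cell immunoreceptor family. It was at 27.4, 17.2 and 11.1 FPKM with digitoxin and 42.5, 31.3 and 35.4 FPKM with vehicle. Every digitoxin library was below every vehicle library, with 3.90 FPKM between the nearest of them. The means were 18.6 ± 8.23 and 36.4 ± 5.67 FPKM (SD, n = 3), and the log2 fold change was -1.01 (standard error 0.36). It belongs to a family of related genes, and whether reads were split between them was not tested, so its value is uncertain in that respect.

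Among the genes of the phagosome and lysosome, Mpeg1 differed most between the groups. It lies on chromosome 1 from 235886915 to 235889176 and encodes perforin-2, a protein that forms pores in engulfed bacteria. Its level was 16.2, 2.68 and 7.50 FPKM with digitoxin and 19.2, 30.6 and 22.0 FPKM with vehicle. Every digitoxin library was below every vehicle library, by at least 2.99 FPKM. The means were 8.79 ± 6.85 and 23.9 ± 5.96 FPKM (SD, n = 3), and the log2 fold change of -1.59 (standard error 0.58) became -1.02 without A6.

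Cd68 (chromosome 10, 56014363 to 56016243), a glycoprotein of lysosome and endosome membranes, was at 237, 270 and 85.6 FPKM with digitoxin and 178, 145 and 144 FPKM with vehicle. The highest and the lowest library were both in the digitoxin group, so the groups overlapped fully. The log2 fold change was 0.19 (standard error 0.46), but -0.12 without A6, -0.0257 without A1 and 0.70 without A12.

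Lyz2 (chromosome 7, 60337949 to 60343246) encodes lysozyme, which cleaves bacterial cell walls and is made by macrophages, neutrophils and, in rodent lung, alveolar type II cells. It was the most abundant of the 10 genes and varied the most, with 38730 FPKM in A1, 39245 in A6, 27464 in B5 and 25503 in B9, against 887 in A12 and 1791 in B14. The highest level was 44.3-fold the lowest. Its share of the FPKM sum ran from 3.28% to 4.76% in the former 4 libraries and was 0.129% in A12 and 0.275% in B14. Per unit of Cd68, Lyz2 was at 164 in A1, 145 in A6, 154 in B5 and 176 in B9, against 10.4 in A12 and 12.5 in B14, so it differed far more between libraries than Cd68 did. A12 and B14 were also the lowest libraries for 13 of the 14 lung alveolar epithelial genes, all but Rtkn2. The 15 neutrophil genes in the table summed to 1463 FPKM in A12 and 3552 in B14, and to between 11495 and 63488 in the other libraries, and most of each sum was S100a8 and S100a9. Not all of these genes had that order, as Mmp9 was highest in A12, at 60.0 FPKM, and B14, at 47.5. The part of epithelial cells and neutrophils in the Lyz2 level was not tested. Between the groups Lyz2 differed by a log2 fold change of 0.0349 with a standard error of 1.83, and -1.26 without B14 or 1.85 without A12.

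Csf1r (chromosome 18, 55662899 to 55689297), the receptor for CSF-1 and IL-34 on which most macrophages depend, was at 59.0, 57.4 and 14.8 FPKM with digitoxin and 42.8, 58.4 and 32.8 FPKM with vehicle. A12 stood apart at the low end. Csf1r differed by -0.22 on the log2 scale (standard error 0.57), or by 0.41 without A12 and -0.55 without A1.

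Cd53 (chromosome 2, 228956378 to 229004197), a tetraspanin found on most white blood cells, marks leukocytes in general rather than macrophages. It was at 94.1, 56.1 and 47.7 FPKM with digitoxin and 149, 95.6 and 97.0 FPKM with vehicle. The groups did not overlap, and A1 lay only 1.48 FPKM below B9. Cd53 had a log2 fold change of -0.81 (standard error 0.33).

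The comparison was also made without A12 and B14, and between these alone. A12 was lower than B14 for 9 of the 10 genes, all but Marco, against 51.3% of all tested genes. The mean log2 level of A1 and A6 was lower than that of B5 and B9 for 5 of the 10, against 64.6% of all tested genes. The same 5 genes, Mpeg1, Msr1, Clec4a3, Cd163 and Cd53, were lower in both comparisons, which held for 33.9% of all tested genes. For Mpeg1 the differences were -1.67 without A12 and B14 and -1.44 between them. For Mrc1, Csf1r, Cd68 and Lyz2 the sign was opposite, with 0.46, 0.22, 0.65 and 0.56 without A12 and B14, and -1.39, -1.10, -0.74 and -1.01 between them. With 2 libraries per group or 1, these are values without a test.

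**Figure D2:**
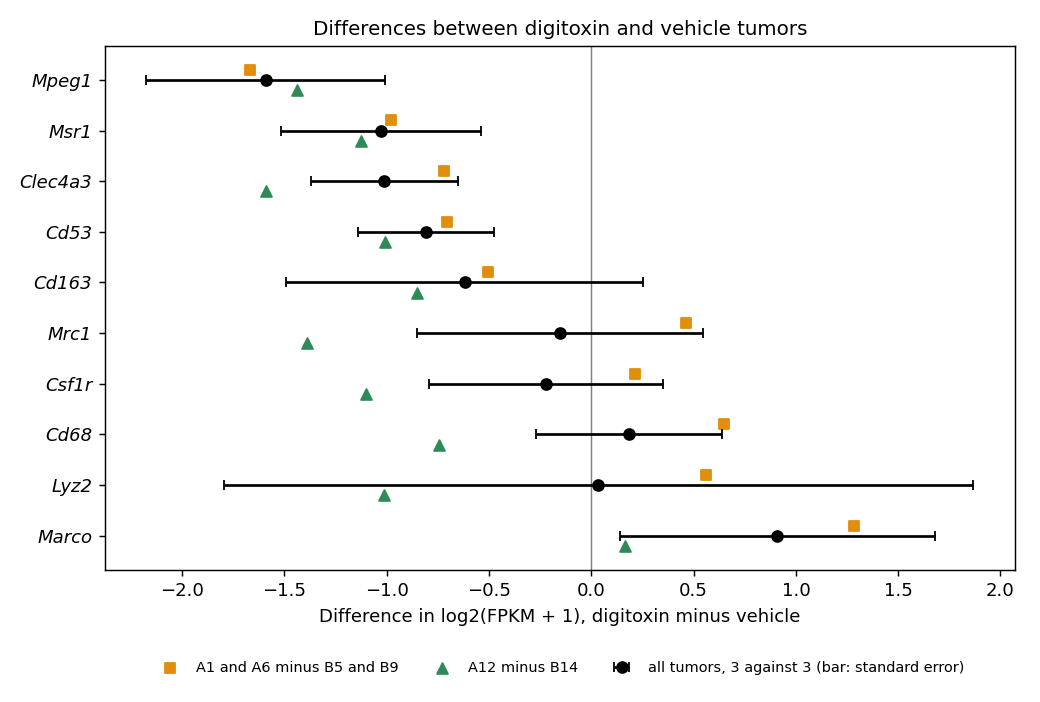
Difference in log2(FPKM + 1), digitoxin minus vehicle, for the 10 genes. Black points are all 6 tumors with the standard error from limma, orange squares the mean of A1 and A6 minus that of B5 and B9, and green triangles A12 minus B14. From Mpeg1 to Cd163 all 3 marks lie below 0, while for Mrc1, Csf1r, Cd68 and Lyz2 the squares lie above and the triangles below 0.

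The profiles over the 6 libraries were compared as the root mean square difference of log2(FPKM + 1) after centering each gene on its own mean. The closest pairs were Clec4a3 with Cd53, at 0.18, and Mrc1 with Csf1r, also at 0.18. Cd68 was next to Csf1r, at 0.35. The farthest pair was Cd163 and Lyz2, at 3.22, since A12 and B14 were highest for the former and lowest for the latter. Csf1r, which most macrophages express, was thus nearer to Mrc1 and Cd68 than to Msr1 or Cd163. Genes are not replicates, and all these profiles share the same 6 libraries.

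**Figure D3:**
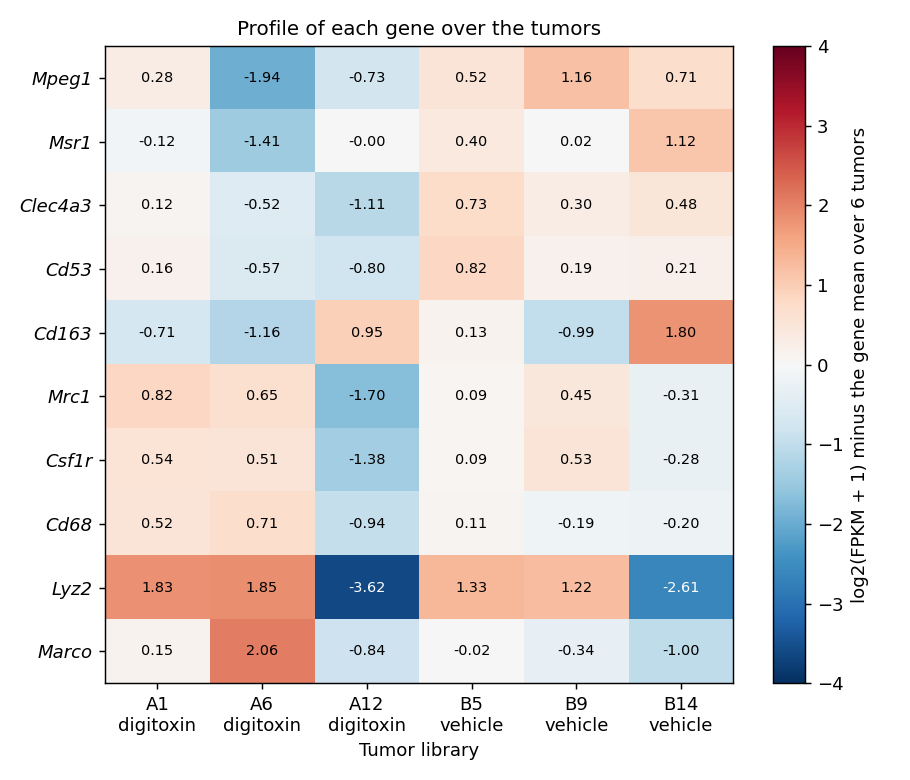
Level of each gene in each tumor library as log2(FPKM + 1) minus the mean of that gene over the 6 libraries, red above and blue below the mean. Lyz2 is at -3.62 in A12 and -2.61 in B14, while Cd163 is at 0.95 and 1.80 there.

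Other genes with a similar profile were sought among all tested genes, and up to 3 of the nearest are given for each. Nearest to Mpeg1 were Cybb, the catalytic subunit of the phagocyte NADPH oxidase, at 0.12, then Gda and Slc6a6. Near to Msr1 were Ak4 and LOC100362347, both at 0.21. For Cd163 the nearest were Angptl4, at 0.24, followed by the monocyte-attracting chemokines Ccl12 and Ccl7, and all 3 were highest in A12 and B14. Clec4a3 was nearest to Cd53, Clec4e and Rgs2. For Cd53 the nearest were Cd8b, Rgs2 and Apobec1, from 0.12 to 0.17. Mrc1 was nearest to Itgb2, the beta chain of the leukocyte integrins, at 0.14, then Slco2b1 and Csf1r.

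For Csf1r the nearest were Parvg, Zrsr1 and Man2a1, and for Cd68 Pax8, Dpp7 and Ctsz, the latter a pair of lysosomal enzymes. Acot1, at 0.17, and Tubb2a, at 0.18, were near to Marco, and their levels were highest in A6. Lyz2 was nearest to Nkain4, Enpp2 and Efemp1, from 0.24 to 0.30, all highest in A1, A6, B5 and B9. With 6 libraries that differ this much in lung transcripts, a close profile says that levels varied together and no more.

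Levels were also set against a general leukocyte level, the mean log2(FPKM + 1) of 14 pan-leukocyte genes such as Ptprc, Coro1a and Itgb2. All 14 were lowest in A12 and B14. Relative to that level, Mrc1 ran only from -1.12 in B5 to -0.36 in B14 and Csf1r from -0.91 in A6 to -0.0645 in B14. Cd163 was at -1.66 in A12 and -1.61 in B14 but between -6.20 and -4.45 in the other libraries, and Msr1 was above 0 only in A12, at 0.0987, and in B14, at 0.42. Mpeg1 was at -4.90 in A6 and between -2.42 and -0.62 elsewhere. The difference between digitoxin and vehicle on this scale was -1.52 for Mpeg1, -0.95 for Msr1, -0.94 for Clec4a3 and -0.73 for Cd53. On this scale the groups overlapped for all 4 of these genes, since A12 was above both B5 and B9 for each. For Cd53, A12 was at 1.27, B5 at 0.92 and B9 at 0.19.

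The 15 wider lists, each without the 10 genes, held 189 tested genes, of which 0 had an adjusted p under 0.05 by limma. An unadjusted p under 0.05 was found for 2 of the 189, or 1.06%, against 0.335% of all tested genes. In the fit with a replicate block it was found for 23, or 12.2%, against 4.15% of all tested genes. The lists were chosen with these data known, and nothing is read from these shares. Among 12 tested scavenger receptors, 7 had a lower and 5 a higher mean with digitoxin, with a median log2 fold change of -0.13, or 0.0381 with median-of-ratios scaling and 0.15 without A12 and B14. They ran from Scarb2, a lysosomal receptor, at -0.68 (standard error 0.52) or -0.23 without A6, to Scarf1, an endothelial receptor for modified lipoprotein, at 0.62 (standard error 0.82) or -0.0150 without A6. Cxcl16, a membrane-bound chemokine that also binds oxidized lipoprotein, had the highest level, from 76.7 FPKM in A6 to 198 in A12.

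Of 13 tested C-type lectins of myeloid cells, 11 had a lower and 2 a higher mean with digitoxin, with a median of -0.42, or -0.23 with median-of-ratios scaling and -0.13 without A12 and B14. The groups did not overlap for 4 of the 13, all lower with digitoxin, against the 3.26% of all tested genes given above. Clec4a2 was at 7.19, 2.49 and 8.07 FPKM with digitoxin and 20.1, 11.4 and 16.2 FPKM with vehicle. Its log2 fold change of -1.37 (standard error 0.46) had an unadjusted p of 0.0241 and an adjusted p of 0.926 by limma. Clec4a, Clec4e and Clec4a1 had -1.17, -0.85 and -0.38, which became -0.74 without A6 for Clec4a and -0.16 without A12 for Clec4a1. Clec4e, or Mincle, binds mycobacterial glycolipids. Clec7a, the beta-glucan receptor dectin-1, had the highest level of the list and a log2 fold change of -0.0678 (standard error 0.83), which was 0.83 without A12 and -0.56 without B14. The values of Clec4a and its numbered relatives are uncertain in the same way as that of Clec4a3.

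In the CSF-1 pathway and the transcription factors of the lineage, 11 of 21 tested genes had a lower and 10 a higher mean with digitoxin, with a median of -0.0738 that became 0.12 with median-of-ratios scaling and 0.0808 without A12 and B14. Csf1, the ligand, was at 8.38, 8.37 and 7.16 FPKM with digitoxin and 10.3, 11.2 and 10.9 FPKM with vehicle. It was the only one of the 21 whose groups did not overlap, against 3.26% of all tested genes with that direction and 4.16% with either. Its log2 fold change of -0.40 (standard error 0.26) had an adjusted p of 0.926 by limma. Il34, the other ligand of the receptor, had 0.67 (standard error 0.73), or 0.22 without B14 and 1.39 without A12. Spi1, which encodes PU.1, was at 114 FPKM in A1, 142 in A6, 83.0 in B5 and 76.1 in B9, and lower in A12 and B14, at 23.0 and 39.5. Maf had the most negative log2 fold change, at -1.35 (standard error 0.94), and its level was 0.610 FPKM in A6 and between 8.65 and 23.5 elsewhere. Without A6 its log2 fold change was -0.29. Cebpb had the highest level and the most positive log2 fold change, at 0.82 (standard error 0.65), or 0.27 without A6 and 1.46 without A12.

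Genes of alveolar and of other resident macrophages were set side by side. Of 11 tested alveolar genes, A12 and B14 were the lowest libraries for 5 and the highest for none, against 29.3% and 30.1% of all tested genes. Abcg1, a cholesterol exporter, was at 133 FPKM in A1 and A6, 54.2 in B5 and 85.4 in B9, but 5.83 in A12 and 10.5 in B14. Fabp5, a fatty acid carrier that many epithelial cells also make, had the highest level and the most negative log2 fold change, at -1.31 (standard error 0.91), or -0.33 without A6 and -2.14 without A12. It was at 602 FPKM in A6 and at 7418 in A12, so members of this list did not share 1 order of libraries. Over the list, 6 genes had a lower and 5 a higher mean, and the median log2 fold change was -0.0126, or 0.18 with median-of-ratios scaling and 0.61 without A12 and B14.

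Of 14 tested genes of resident and perivascular macrophages, A12 and B14 were the highest libraries for 5 and the lowest for 4. C1qa, a chain of complement C1q, was at 181, 72.3 and 275 FPKM with digitoxin and 236, 128 and 435 FPKM with vehicle. F13a1, a transglutaminase of resident macrophages, was at 8.64 FPKM in A12 and 40.8 in B14, and from 0.808 to 4.59 in the others. Sepp1, a selenium carrier that many cells make, had the highest level of the list and the opposite order, with 88.2 FPKM in A12, 133 in B14 and from 758 to 1525 in the others. The median log2 fold change of the 14 genes was -0.67, or -0.51 without A12 and B14, with 9 lower and 5 higher, and 0 passed the adjusted threshold. Of 9 monocyte genes, A12 and B14 were highest for 4, among them Itgam and Cx3cr1, and lowest for 4. Their median log2 fold change was -0.53, or -0.55 without A12 and B14, with 7 lower and 2 higher.

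**Figure D4:**
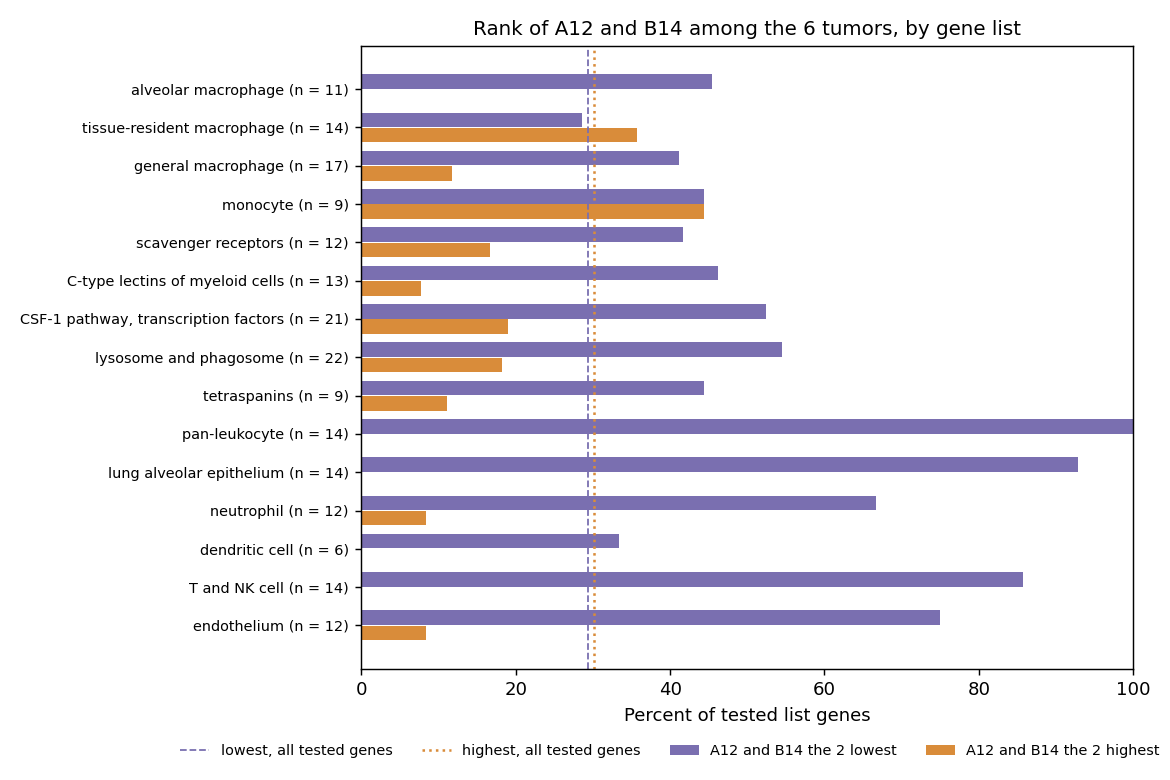
Percent of the tested genes of each list for which A12 and B14 were the lowest or the highest of the 6 libraries, with the 10 macrophage genes left out of the lists. Dashed and dotted lines are the percentages over all tested genes (29.3% lowest and 30.1% highest); all 14 pan-leukocyte genes were lowest in A12 and B14, while monocyte genes were evenly divided.

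The remaining lists of the pathway were those of the lysosome and of the tetraspanins. Of 22 lysosome and phagosome genes, 8 had a lower and 14 a higher mean with digitoxin, with a median of 0.0355, or 0.23 with median-of-ratios scaling and 0.26 without A12 and B14. Npc2, a cholesterol carrier, had the highest level and the most positive log2 fold change, at 0.60 (standard error 0.89), or 0.0544 without B14 and 1.52 without A12. Of 9 tetraspanins besides Cd53, 7 had a lower and 2 a higher mean, with a median of -0.0984, or 0.0962 with median-of-ratios scaling and -0.12 without A12 and B14, and for 0 of them did the groups not overlap. In the general macrophage list, 10 of 17 genes had a lower and 7 a higher mean, with a median of -0.0645, or 0.13 with median-of-ratios scaling and 0.28 without A12 and B14. Emr1, which encodes the F4/80 antigen, was low, between 2.88 FPKM in A12 and 6.20 in B9.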

How the data were processed

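Messenger RNA of 6 PAIII tumors was sequenced as single reads from TruSeq libraries. Grooming of the reads, alignment (Bowtie 2, TopHat 2) and FPKM estimation (Cufflinks 2) were done by the authors, and the deposited table holds FPKM per gene and tumor, with no scaling between tumors stated. Cuffdiff, used by the authors for their own comparison, needs reads and was not repeated. The submitters' processing notes name hg19, a human build. The rat build is not given in the sources used here, so gene positions are printed as the table gives them. Steps between low FPKM gave no usable relative depth (at most 1.22% of 898 rows at the most frequent ratio).

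The table has 17557 rows and 17030 symbols. For the 467 symbols on several rows, the row with the highest mean was taken. Groups were compared with limma 3.58.1 (R 4.3.3) with a mean-variance trend, applied to log2(FPKM + 1) of symbols with a mean of at least 1 FPKM, with two-sided p and Benjamini-Hochberg adjustment. Fold changes on this scale understate those of low genes such as Cd163 and Marco. Other values came from Python 3.11.15 with numpy 2.4.6 and pandas 2.3.3, and plots from matplotlib 3.10.9. Simulated data were used to test the fit: with 200 of the 10740 genes shifted by 4 in log2, 180 of these were called in the direction simulated, as well as 10 unchanged genes.

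The 10 genes and all lists were chosen with earlier results of these data known. The lists come from general knowledge. Named genes are the 10, the 3 of nearest profile for each, and from each list those with an unadjusted p under 0.05, the largest rise and fall and the highest level. Some genes that this rule takes are not reported here. Other list genes were picked after their values were seen. Same-numbered libraries of the groups deviated together (r = 0.43, 0.61 and 0.87 across genes for replicates 1, 2 and 3), which is the only source of the pairing, and A1 with B9 (0.65) and A6 with B5 (0.61) did so as well. Alternatives were another pseudocount, no filter, median-of-ratios scaling, no trend, a replicate block, leaving out each library, A12 and B14 left out, and the lung list as a covariate.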

Additional observations from a re-analysis of the deposited data

How the results depend on the processing

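Reads were not analysed, so the precision of low FPKM is unknown. Under 13 alternatives the count of the 10 genes with a lower mean ran from 5 to 9 and their median log2 fold change from -0.74 (without A1) to -0.0974 (without A12), with no change of sign. By construction 3 of these alternatives (no filter, no trend, replicate block) leave each fold change of the 10 as it is. Of the 100 values under the other 10, 13 had the opposite sign, in Cd163, Mrc1, Cd68, Csf1r and Lyz2. Leaving out 1 library moved Lyz2 from 0.0349 to between -1.26 and 1.85. With the block by replicate number, 446 genes had an unadjusted p under 0.05, against 36, and 23 list genes, against 2. The unadjusted count was 130 with no filter, 1200 without A12 and B14 and 374 with the lung list as a covariate, and with each library left out it ran from 11 (without B9) to 2128 (without A12). The adjusted count of 0 ran from 0 to 2 with each library left out, and was 2, Mir3561 and Mir3567, both without B14 alone and without A12 and B14. The number of genes whose groups did not overlap, 447, was 6150 without A12 and B14, where 2 libraries face 2, and with each library left out ran from 546 (without A6) to 5476 (without A12). List genes at an unadjusted p under 0.05 were 1 with no filter, 35 without A12 and B14 and 12 with the covariate, and ran from 1 to 29 with each library left out, highest without A12. The cause was not tested, except that fewer libraries make groups overlap less by construction.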

Other observations

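Cd4, the coreceptor of helper T cells, is in rats also carried by macrophages. Of 14 tested T and NK cell genes, only Cd4 had an unadjusted p under 0.05 by limma, against 0.335% of all tested genes. Its log2 fold change was -0.90 with a standard error of 0.36, where limma gave an adjusted p of 0.926. Its levels were 6.94, 5.43 and 6.94 FPKM in A1, A6 and A12, against 8.70, 12.6 and 19.2 FPKM in B5, B9 and B14. Every digitoxin library was below every vehicle library, which held for 3.26% of all tested genes. With each library left out the log2 fold change of Cd4 ran from -1.16 to -0.63. The list as a whole had 7 genes with a lower and 7 with a higher mean.

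Hmox1, the enzyme that breaks down the heme taken up through CD163, was at 285 FPKM in A12 and 487 in B14, and from 127 to 236 FPKM in the other libraries. Its log2 fold change was -0.57 (standard error 0.53), or -0.11 without B14 and -0.98 without B9. Trem2 and Gpnmb, genes of lipid-laden macrophages, were at 21.2 and 179 FPKM in A12 and from 21.4 to 47.5 and from 294 to 420 FPKM in the other libraries.

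Lists of other cell types were counted as well. Of 12 neutrophil genes tested, 5 had a lower and 7 a higher mean with digitoxin, with a median log2 fold change of 0.13, or 0.33 with median-of-ratios scaling and 0.32 without A12 and B14. Of 6 dendritic cell genes 3 were lower and 3 higher, with a median of -0.15 that became 0.0270 with this scaling and 0.0615 without A12 and B14. Of 12 endothelial genes 2 were lower and 10 higher, with a median of 0.59, or 0.78 scaled and 0.86 without A12 and B14, and of 14 lung alveolar epithelial genes 2 were lower and 12 higher, with a median of 0.53, or 0.73 scaled and 0.91 without A12 and B14. None of these passed an adjusted p under 0.05 by limma, and 0 had an unadjusted p under 0.05. Alternative tools were not run on FPKM.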
